A study of Mus musculus with 15 samples.

Results

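The 10 genes Mx1, Mx2, Rsad2, Cmpk2, Bst2, Samhd1, Samd9l, Ifitm1, Ifitm2 and Ifitm3 are known for proteins that act directly against viruses, or sit beside such a gene. They were picked by name from a table of 32544 entries, and all 10 were found there. The choice of names used no threshold on their levels, but earlier results of these data were known when it was made. All 10 also passed the filter on low counts and were among the 15494 genes tested. The levels come from poly(A) RNA of 15 whole tumors grown under the skin of female BALB/c mice from WEHI-164, a wild-type mouse fibrosarcoma cell line. The day 0 tumors were untreated. The other tumors received poly(I:C), a synthetic double-stranded RNA, by injection into the tumor at 1 µg in 25 µL each day, with 6 doses planned, and were taken on day 1, 3, 5 or 7. Each day had 3 tumors. The dose is the one on the labels, and a legend in the study's supplement states a larger one.

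The labels give no vehicle-injected tumors, no mouse ages and no interval between the last dose and harvest. The effects of poly(I:C), of the injection and of the growing age of the tumor therefore cannot be told apart in any comparison with day 0. The paper counts the harvest days from the first dose. With daily dosing, the treated days can then differ in the number of doses received as well as in tumor age. The last harvest day also falls after the planned doses had ended. Comparisons between treated days cannot tell these differences apart. The labels do not say which mouse each tumor came from, and the legends of the study give 3 mice a group, so the 3 tumors of a day are taken as 3 mice. In RNA of whole tumors, fewer cells of a type and less RNA per cell also cannot be told apart.

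Double-stranded RNA is sensed by Toll-like receptor 3 in endosomes and by MDA5 (Ifih1) and RIG-I in the cytoplasm, which lead to production of type I interferon. Interferon bound to its receptor activates transcription factors that bind interferon-stimulated response elements (ISRE) in promoters and induce genes such as those described here. Interferon gamma acts mainly through gamma-activated sites (GAS). The effectors block viruses at separate steps. Mx proteins are dynamin-like GTPases that act on viral nucleocapsids, and many inbred laboratory strains carry a defective Mx1. Whether the Mx1 and Mx2 RNA of these tumors encodes working protein was not examined. Viperin (Rsad2) converts CTP into a chain terminator of viral polymerases, and Cmpk2 is a mitochondrial nucleotide kinase. Tetherin (Bst2) holds budding enveloped virions at the cell surface. Samhd1 breaks down deoxynucleotides, and Samd9l restricts poxviruses and limits cell growth. The IFITM proteins hinder fusion of enveloped viruses in endosomes or at the cell surface.

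Several of the 10 genes lay close together in the GENCODE M21 annotation of GRCm38. Mx1 (chr16:97447035-97462907, minus strand) and Mx2 (chr16:97535308-97560900, plus strand) lay 72.4 kb apart, with 4 annotated genes between them, of which Fam3b is protein coding. Mx2 was annotated as a polymorphic pseudogene and the other 9 as protein coding. Rsad2 (chr12:26442746-26456452, minus strand) and Cmpk2 (chr12:26469204-26479837, plus strand) were transcribed away from each other, with 12751 bases and no annotated gene between them. On chromosome 7, Ifitm2 (chr7:140954837-140955987, minus strand), Ifitm1 (chr7:140967221-140969825, plus strand) and Ifitm3 (chr7:141009586-141010770, minus strand) lay in that order. No annotated gene lay wholly between the first pair and 1 did between the second, which is not protein coding. Ifitm2 was overlapped by Gm45717, annotated as protein coding on the same strand. Bst2 (chr8:71534255-71537456), Samhd1 (chr2:157097533-157135265) and Samd9l (chr6:3372257-3399572) were on separate chromosomes, all on the minus strand.

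The promoter windows of 5 genes are shown because they hold the ISRE core of the effectors or, in Ifitm1, set a window without one beside its 2 neighbors. Each runs from 250 bases before to 50 bases after the RefSeq start on GRCm38.p6, 5′ to 3′ on the strand of the gene. Capitals mark each match to the ISRE core, spelled GAAANNGAAA, on either strand. The windows are Rsad2 (chr12:26456403-26456702, minus strand), Bst2 (chr8:71537423-71537722, minus strand), Ifitm3 (chr7:141010695-141010994, minus strand), Ifitm2 (chr7:140955912-140956211, minus strand) and Ifitm1 (chr7:140967826-140968125, plus strand).
Rsad2: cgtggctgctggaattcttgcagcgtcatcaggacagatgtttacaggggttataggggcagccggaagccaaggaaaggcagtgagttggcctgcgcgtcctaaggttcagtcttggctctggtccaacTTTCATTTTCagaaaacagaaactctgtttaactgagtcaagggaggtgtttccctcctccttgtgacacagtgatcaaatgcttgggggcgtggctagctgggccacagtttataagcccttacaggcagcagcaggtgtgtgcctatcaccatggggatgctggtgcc
Bst2: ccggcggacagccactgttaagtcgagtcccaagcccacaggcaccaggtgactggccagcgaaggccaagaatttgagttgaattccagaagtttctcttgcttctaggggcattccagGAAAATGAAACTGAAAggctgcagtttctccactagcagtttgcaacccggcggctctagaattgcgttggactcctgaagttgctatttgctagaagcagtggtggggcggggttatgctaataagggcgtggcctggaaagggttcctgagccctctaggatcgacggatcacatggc
Ifitm3: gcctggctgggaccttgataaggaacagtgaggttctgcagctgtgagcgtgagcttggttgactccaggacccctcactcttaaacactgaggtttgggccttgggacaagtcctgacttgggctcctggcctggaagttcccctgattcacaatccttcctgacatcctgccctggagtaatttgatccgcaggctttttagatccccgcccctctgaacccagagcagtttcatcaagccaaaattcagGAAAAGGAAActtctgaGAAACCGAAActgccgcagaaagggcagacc
Ifitm2: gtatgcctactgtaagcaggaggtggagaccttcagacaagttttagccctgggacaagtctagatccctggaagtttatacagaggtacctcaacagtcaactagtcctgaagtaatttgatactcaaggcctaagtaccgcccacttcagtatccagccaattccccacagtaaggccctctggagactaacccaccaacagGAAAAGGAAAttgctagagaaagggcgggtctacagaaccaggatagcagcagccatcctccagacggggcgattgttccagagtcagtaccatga
Ifitm1: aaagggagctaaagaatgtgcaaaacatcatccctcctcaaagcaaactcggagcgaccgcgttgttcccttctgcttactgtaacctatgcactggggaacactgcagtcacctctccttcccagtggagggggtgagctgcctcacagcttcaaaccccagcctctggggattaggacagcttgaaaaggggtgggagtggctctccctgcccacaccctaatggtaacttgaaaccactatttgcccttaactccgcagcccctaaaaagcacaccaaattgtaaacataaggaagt

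RefSeq promoter sequence was at hand for 8 of the 10 genes, and not for Mx1 and Mx2. The ISRE core was present in 4 of these 8 windows, and in 3.44% of all 32851 promoter windows of the same length. In Rsad2 the match lay on the opposite strand, 120 bases before the start. Bst2 held a pair of overlapping matches, of which the farther began 130 bases before the start. The match of Ifitm2 began 46 bases before the start, and the 2 of Ifitm3 began 3 and 20 bases after it. The GAS core, spelled TTCNNNGAA, was found in Samhd1, Ifitm3 and Bst2, against 8.30% of all windows. In Bst2 and Ifitm3 the GAS core overlapped an ISRE core. Cmpk2, Samd9l and Ifitm1 held neither set of letters in this window. For Ifitm1 the RefSeq start lay 855 bases inside the gene from the GENCODE start, against at most 169 bases between the starts of each of the other 7, and sequence around the GENCODE start was not searched. These are matches of letters and not measured binding.

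**Figure D1:**
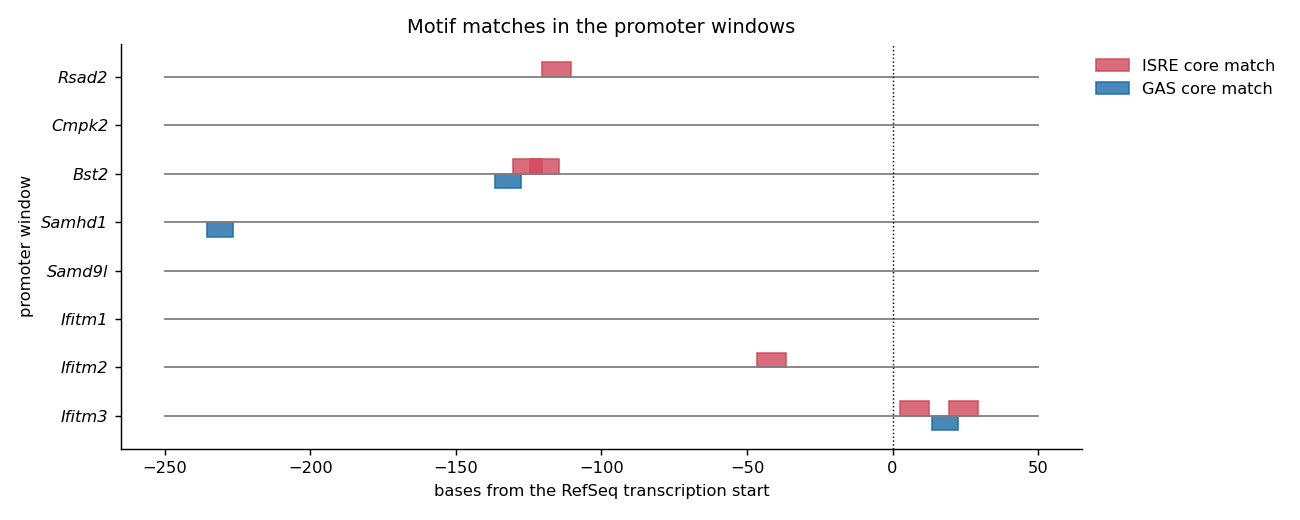
Positions of ISRE core (red) and GAS core (blue) matches in the promoter windows of 8 effector genes, in bases from the RefSeq start (dotted line). ISRE cores are drawn in 4 windows, those of Rsad2, Bst2, Ifitm2 and Ifitm3, and the windows of Cmpk2, Samd9l and Ifitm1 are empty.

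Library totals ran from 23713090 to 31913106 counts, so that a level of 3 counts corresponded to a CPM of at most 0.125. All levels below are CPM, counts scaled to library size, adjusted by the TMM factors of edgeR. The 9 fibroblast and mesenchymal markers, among them Col1a1 and Vim, summed to between 8836 and 33576 CPM, with none at 0 in any tumor. One tumor stood apart from the rest. Replicate 1 of day 3 had a mean correlation of 0.884 with the rest, where no other tumor was under 0.956. Its 5 skeletal muscle markers summed to 2159 CPM, against 122 and 41.6 CPM in the other 2 day 3 tumors, and its 5 T cell markers to 133 CPM, against 36.0 and 39.9 CPM.

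Before treatment the 10 genes spanned a wide range when levels were divided by annotated exon length. Per kb of exon, the day 0 level was 526 ± 69.6 CPM (SD, n = 3) for Ifitm3 and 240.4 ± 34.6 CPM for Ifitm2. Bst2 followed at 179 ± 20.3 CPM per kb. Ifitm1 stood at 83.8 ± 13.2, Samhd1 at 40.8 ± 3.74 and Samd9l at 18.3 ± 2.39 CPM per kb. Rsad2 at 9.76 ± 0.565, Mx1 at 7.34 ± 1.20, Cmpk2 at 6.90 ± 0.628 and Mx2 at 3.30 ± 0.457 CPM per kb were the lowest. Mx1 and Cmpk2, neighbors in this order, overlapped in their ranges, and no other pair of neighbors did. Ifitm2 is the least certain of these levels, because 55.5% of its 31-base stretches of transcript also occur in transcripts of other annotated genes, the overlapping Gm45717 among them. That share was 20.5% for Ifitm3, 11.6% for Ifitm1, 8.67% for Mx1, 7.96% for Mx2 and at most 2.40% for each of the other 5.

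The Mx pair had its highest mean on day 1 and overlapped day 0 again on day 7. The level of Mx1 was 22.7, 31.5 and 29.2 CPM in the day 0 tumors, 52.7, 38.8 and 169 CPM on day 1, and 65.3, 101 and 53.2 CPM on day 3. It was 38.1, 52.4 and 29.0 CPM on day 5 and 24.6, 25.1 and 23.9 CPM on day 7. Every tumor of days 1 and 3 lay above every untreated tumor, and replicate 3 of day 1 was far above all others. The fold change against day 0 was 3.13 on day 1 (log2 1.65 ± 0.45 SE, edgeR adjusted p = 0.853) and 2.64 on day 3 (log2 1.40 ± 0.45, adjusted p = 0.105). Without replicate 3 of day 1, the day 1 fold of Mx1 was 1.65. Mx2 also had its highest mean on day 1 and its next highest on day 3. Its tumors measured 10.7, 13.8 and 11.3 CPM on day 0, 26.9, 18.9 and 64.3 CPM on day 1, and 17.3, 36.9 and 20.8 CPM on day 3. Days 1 and 3 again did not overlap day 0, with folds of 3.08 and 2.10. Without replicate 3 of day 1, the day 1 fold of Mx2 was 1.92. On days 5 and 7 Mx2 ranged from 11.0 to 18.1 CPM and overlapped day 0.

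Rsad2 had the widest range of the 10 genes, 10.3-fold from the lowest to the highest tumor. Rsad2 measured 42.7, 44.6 and 39.7 CPM in the untreated tumors, 86.6, 64.4 and 362 CPM on day 1, and 50.5, 163 and 87.9 CPM on day 3. The day 1 and day 3 tumors all lay above day 0, but replicate 1 of day 3 did so only by a small margin. The fold was 4.04 on day 1 (log2 2.02 ± 0.61 SE, edgeR adjusted p = 0.870) and 2.37 on day 3 (log2 1.25 ± 0.60, adjusted p = 0.170). The day 1 fold of Rsad2 was 1.79 without replicate 3 of that day. On day 5 it measured 35.3, 87.5 and 44.2 CPM and on day 7 35.2, 41.2 and 58.6 CPM, and both days overlapped day 0. Cmpk2, on the other side of the shared intergenic stretch, ordered the tumors much the same way. It measured 25.7, 30.4 and 30.1 CPM on day 0, 57.5, 45.5 and 162 CPM on day 1, and 35.4, 91.5 and 57.9 CPM on day 3. Its folds were 3.08 on day 1, or 1.80 without replicate 3 of that day, and 2.15 on day 3. On days 5 and 7 it ranged from 28.0 to 52.5 CPM and overlapped day 0. For both genes the highest tumor was replicate 3 of day 1 and the second highest replicate 2 of day 3.

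Bst2 was the only gene of the 10 whose day 5 tumors also cleared day 0. Its levels were 143, 180.1 and 162 CPM on day 0, 303, 316 and 685 CPM on day 1, and 197, 478 and 340.0 CPM on day 3. Levels on day 5 were 219, 241 and 195 CPM, all above the highest untreated tumor. On day 7 they were 160.5, 185 and 147 CPM and overlapped day 0. The fold was 2.69 on day 1 (log2 1.43 ± 0.33 SE, edgeR adjusted p = 0.642), 2.09 on day 3 (log2 1.06 ± 0.32, adjusted p = 0.104) and 1.35 on day 5 (log2 0.43 ± 0.32, adjusted p = 0.846). Leaving out replicate 3 of day 1 took the day 1 fold of Bst2 to 1.91. In mice Bst2 is also a surface marker of plasmacytoid dendritic cells. The 3 markers of those cells, Siglech, Ccr9 and Klk1, summed to 62.5 CPM in replicate 1 of day 3 and 40.7 CPM in replicate 1 of day 5, against at most 15.6 CPM elsewhere. Bst2 was at its day 3 minimum in the first of these tumors, and in the second it lay between the other 2 tumors of day 5. The part of these cells in the level of Bst2 was not tested.

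Of the 8 genes other than Ifitm1 and Ifitm2, Samhd1 alone had a higher mean on day 3 than on day 1 with all tumors. Without replicate 3 of day 1 all 8 did, so this difference in timing rested on that tumor, and it was not tested between genes. It measured 338, 406 and 376 CPM on day 0, 378, 526 and 830.3 CPM on day 1, and 937, 758 and 648 CPM on day 3. Day 1 overlapped day 0 and day 3 did not. The fold was 1.55 on day 1 (log2 0.63 ± 0.33 SE, edgeR adjusted p = 1.00) and 2.09 on day 3 (log2 1.06 ± 0.33, adjusted p = 0.104). Leaving out replicate 3 of day 1 took the day 1 fold of Samhd1 to 1.21. Day 5 was split, with 714, 625 and 339 CPM, and day 7 held 261, 466 and 249 CPM. Samhd1 is strongly expressed in myeloid cells. Its highest tumor, replicate 1 of day 3, also had the highest summed leukocyte and macrophage markers. The T cell, skeletal muscle, and fibroblast and mesenchymal marker sums were highest in that tumor as well. The part of any of these cells in the level of Samhd1 was not tested.

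Samd9l had the tightest day 3 tumors of the 10 genes. Its levels were 86.1, 112 and 99.0 CPM on day 0, 158, 136 and 229 CPM on day 1, and 169, 185 and 161 CPM on day 3. The coefficient of variation on day 3 was 7.18%, against 57.0% for Rsad2. Samd9l had folds of 1.76 on day 1 (log2 0.81 ± 0.17 SE, edgeR adjusted p = 0.642) and 1.73 on day 3 (log2 0.79 ± 0.17, adjusted p = 0.104). Its day 1 fold was 1.48 without replicate 3 of that day. Levels of 109.8, 119 and 119.8 CPM on day 5 and of 116, 97.4 and 86.0 CPM on day 7 overlapped day 0.

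The 3 IFITM genes of one cluster differed in their course, although the differences between them were not tested. Ifitm3 measured 303, 390 and 378 CPM on day 0, 473, 519 and 858 CPM on day 1, and 447, 675 and 528 CPM on day 3, so that neither treated day overlapped day 0. Its folds were 1.73 on day 1 (log2 0.79 ± 0.23 SE, edgeR adjusted p = 0.853) and 1.54 on day 3 (log2 0.62 ± 0.22, adjusted p = 0.111). The day 1 fold of Ifitm3 was 1.39 without replicate 3 of that day. Ifitm2, which also holds an ISRE core in its window, stayed within a range of 1.73-fold over all 15 tumors. It measured 131, 173 and 168 CPM on day 0, 154, 159 and 180.4 CPM on day 1, and 227, 169 and 164 CPM on day 3. Its log2 fold change was 0.06 ± 0.17 on day 1 and 0.24 ± 0.17 on day 3, and the days overlapped. On days 5 and 7, Ifitm3 ranged from 324 to 494 CPM and Ifitm2 from 147 to 209 CPM, and both overlapped day 0.

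Ifitm1 was the gene whose day 3 mean lay below day 0. It measured 75.5, 103 and 96.2 CPM on day 0, 96.9, 90.2 and 84.3 CPM on day 1, and 46.5, 79.8 and 76.4 CPM on day 3. The lowest value was in replicate 1 of day 3, the tumor rich in muscle and leukocyte markers. All 3 day 3 tumors lay below all 3 day 1 tumors, but day 3 overlapped day 0. Day 3 was 1.36-fold lower than day 0 (log2 -0.44 ± 0.20 SE, edgeR adjusted p = 0.156), and the log2 difference was -0.23 without replicate 1 of day 3. Ifitm1 stood at 116, 83.1 and 92.9 CPM on day 5 and at 108, 94.8 and 79.9 CPM on day 7.

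**Figure D2:**
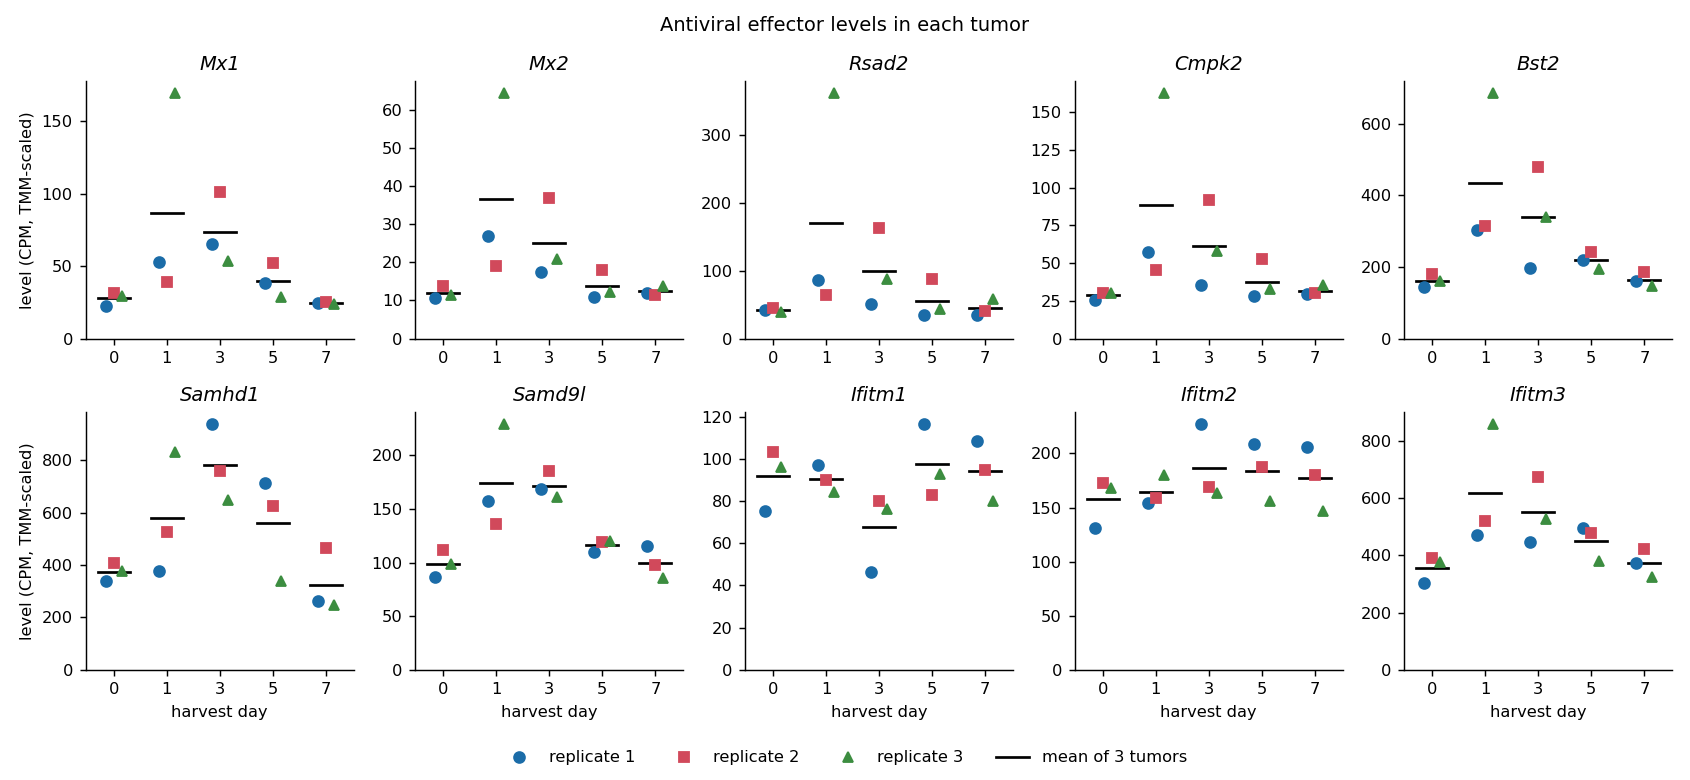
Level of each of the 10 effector genes (CPM, linear axis from 0, one scale per gene) in every tumor by harvest day, with the replicate number as marker and the mean of 3 tumors as a bar. Mx1 reaches 169 CPM and Rsad2 362 CPM in replicate 3 of day 1, while Ifitm2 stays between 131 and 227 CPM in all tumors.

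Taking the 10 genes together on day 1, none passed the edgeR test at an adjusted p under 0.05, and 0% of the 15494 genes did. At an unadjusted edgeR p under 0.05, 7 of the 10 were higher on day 1 (Mx1, Mx2, Rsad2, Cmpk2, Bst2, Samd9l and Ifitm3), against 2.29% of all genes. The day 1 tumors of these 7 lay wholly above day 0, as they did for 5.76% of all genes. DESeq2, run as a second tool, called Mx2, Bst2 and Samd9l higher at its own adjusted p (0.0301, 0.0131 and 0.0136), against 0.239% of all genes. The median log2 fold change of the 10 genes was 1.12, and that of all genes 0.00032. This day rested heavily on replicate 3. Without it, the median of the 10 was 0.65 and DESeq2 called 0. An unadjusted edgeR p under 0.05 was then reached by 6 of the 10, against 1.44% of all genes. DESeq2 also called 0 without replicate 1 or replicate 3 of day 0, 7 without replicate 1 and 6 without replicate 2 of day 1, and 5 without replicate 1 or 2 of day 3. In these 7 refits DESeq2 called from 0.00647% to 0.731% of all genes.

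On day 3 the same untreated tumors served as reference, so the values below are not independent of those of day 1. edgeR called 0 of the 10 and 0% of all genes at its adjusted p, with the lowest at 0.104. At an unadjusted p under 0.05, 7 were higher (Mx1, Mx2, Cmpk2, Bst2, Samhd1, Samd9l and Ifitm3), against 19.4% of all genes, and Ifitm1 alone was lower, against 12.1%. The tumors of 8 of the 10, all but Ifitm1 and Ifitm2, lay wholly above day 0, against 19.4% of all genes. DESeq2 called 5 higher, namely Mx1, Bst2, Samhd1, Samd9l and Ifitm3, with adjusted p from 0.00529 to 0.0452, against 9.02% of all genes. The median log2 fold change was 1.06, against -0.02 for all genes. These values depended in part on replicate 2. Without it the median was 0.71 and DESeq2 called Samhd1 and Samd9l, 2 of the 10, while it called 22.2% of all genes, a share near that of the 10. Without replicate 1, the tumor rich in muscle markers, the median was 1.10 and DESeq2 called Bst2 and Samd9l, against 0.553% of all genes. Leaving out replicate 1, 2 or 3 of day 0 left 0, 1 and 1 DESeq2 calls, against 0.0841%, 2.86% and 0.466% of all genes. The count at an unadjusted p under 0.05, both directions together, fell from 8 to 5 without replicate 1 or 3 of day 0 or replicate 2 of day 3, where 18.1%, 21.4% and 39.2% of all genes were counted. Leaving out replicate 3 of day 1 gave 8 DESeq2 calls, against 17.3% of all genes, and 2 edgeR calls, Mx1 and Samd9l, against 0.608%.

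**Figure D3:**
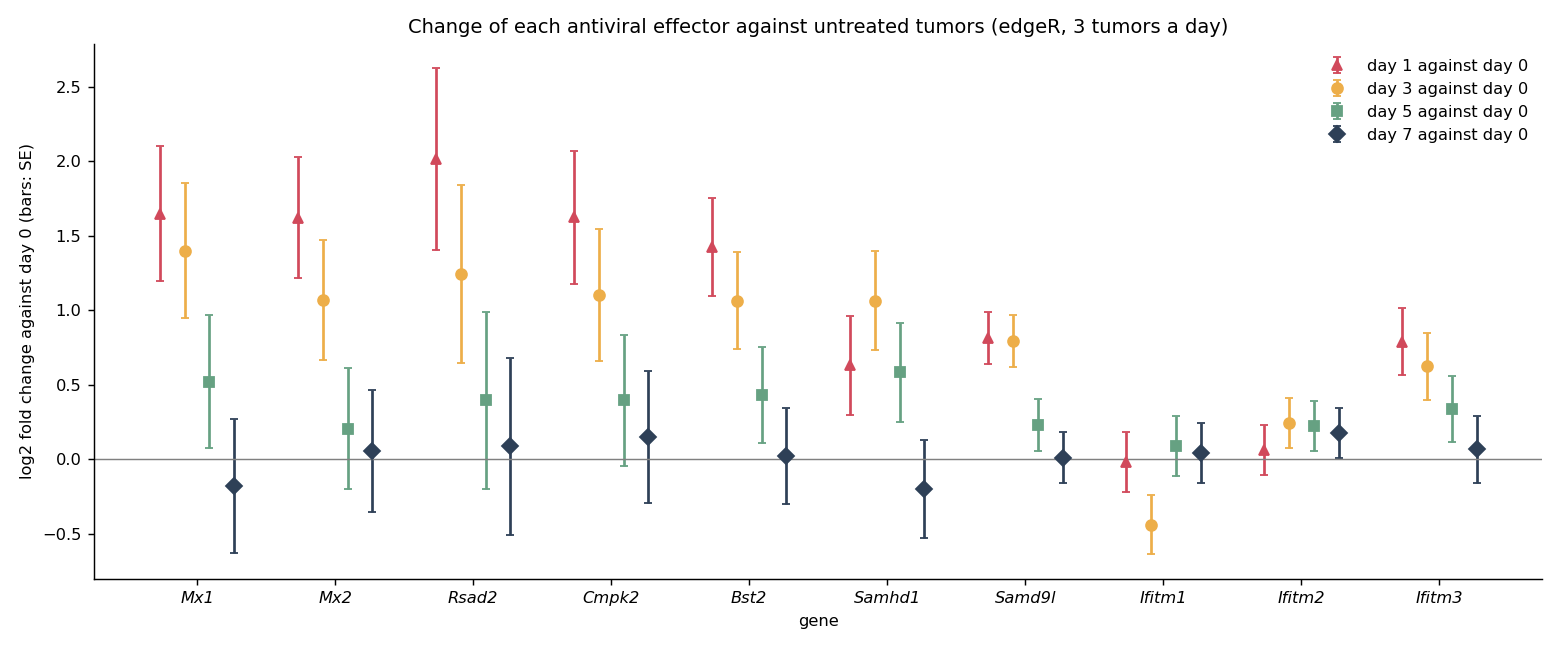
Log2 fold change against untreated tumors for each effector gene on days 1, 3, 5 and 7, fitted by edgeR from 3 tumors a day; bars are 1 SE and all 4 comparisons share the day 0 tumors. Day 1 values reach 2.02 for Rsad2, day 7 values lie between -0.20 and 0.17, and Ifitm1 is the one gene at -0.44 on day 3.

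By day 5 the differences from day 0 were small. edgeR called 0 of the 10 and 0% of all genes at its adjusted p, and 0 of the 10 were higher at an unadjusted p under 0.05, against 1.45% of all genes. Bst2 alone lay wholly above day 0, against 6.89% of all genes. All 10 log2 fold changes were above 0, as were those of 50.3% of all genes. The 10 genes share the same tumors, so these are not 10 separate observations. Their median was 0.37, and Samhd1 was the highest at 0.58 ± 0.33 SE. Mx1 (0.52 ± 0.45) and Bst2 (0.43 ± 0.32) came next. Without replicate 2 of day 5 the median was 0.21, and Mx2 and Rsad2 lay just below 0 at -0.044 and -0.091. Without replicate 3 of day 5, 1 of the 10 had an unadjusted p under 0.05, against 10.5% of all genes.

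Day 7 could not be separated from day 0 for any of the 10 genes. edgeR called 0 of the 10 and 0% of all genes at its adjusted p. At an unadjusted p under 0.05, 0 were higher and 0 lower, against 1.08% and 1.03% of all genes. No gene of the 10 lay wholly above or wholly below day 0, against 5.02% and 6.26% of all genes. The median log2 fold change was 0.05, and the values ran from -0.20 ± 0.33 SE for Samhd1 to 0.17 ± 0.17 for Ifitm2. The SE of these 10 values ran from 0.17 to 0.59. Differences of that size, and larger ones, could have been missed. On day 3, for example, Rsad2 at 1.25 ± 0.60 SE had an unadjusted edgeR p of 0.0579.

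Between the 2 early days, edgeR called 0 of the 10 and 0% of all genes at its adjusted p. Their unadjusted p values were all above 0.05, while 13.9% of all genes were higher and 5.71% lower on day 3 at that level. Ifitm1 alone had day 3 tumors wholly below day 1, against 6.78% of all genes. Of the 10, 8 had lower means on day 3, while 46.6% of all genes had higher ones. The median log2 difference of the 10 was -0.30, with the lowest at -0.77 ± 0.59 SE for Rsad2. This direction rested on 1 tumor. Without replicate 3 of day 1 the median turned to 0.24, and Mx1 (0.68), Rsad2 (0.42), Cmpk2 (0.26), Samd9l (0.23), Ifitm3 (0.15), Bst2 (0.13) and Mx2 (0.13) were all higher on day 3. The number at an unadjusted p under 0.05 was then 2, and it was 2 without replicate 2 of day 3 and 1 without replicate 2 of day 1 or replicate 3 of day 3. The shares over all genes in these 4 refits were 28.7%, 30.8%, 7.99% and 31.5%.

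From day 3 to day 7 the levels were lower for 9 of the 10 genes, while 51.6% of all genes were higher. edgeR called 0 of the 10 and 0% of all genes at its adjusted p, with the lowest at 0.0801. There were 6 lower at an unadjusted p under 0.05 (Mx1, Mx2, Bst2, Samhd1, Samd9l and Ifitm3), against 22.9% of all genes, and the same 6 lay wholly below day 3, against 18.4%. Ifitm1 went the other way, at 1.40-fold higher (log2 0.48 ± 0.20 SE, edgeR adjusted p = 0.115), and its day 7 tumors lay above day 3, but only by the margin between 79.9 CPM in the lowest day 7 tumor and 79.8 CPM in the highest day 3 tumor. The background for Ifitm1 was 13.1% of genes by the unadjusted p and 14.6% by the lack of overlap. DESeq2 called Mx1, Bst2, Samhd1 and Samd9l lower, against 15.1% of all genes. Mx1 had the largest difference (log2 -1.58 ± 0.46 SE), followed by Samhd1 (-1.26 ± 0.33). The median of the 10 was -0.98, or -0.61 without replicate 2 of day 3. The count at an unadjusted p under 0.05 went from 7 to 4 without that tumor or replicate 1 of day 7, against 44.8% and 22.2% of all genes. DESeq2 called 1 of the 10 without replicate 1 of day 7, against 0.0776% of all genes, and 8 without replicate 3 of day 1, against 24.4%. Without replicate 3 of day 7 DESeq2 gave no adjusted p to 5 of the 10 and called 0 of the other 5, against 0.123% of all genes. In that fit 8 of the 10 had an unadjusted DESeq2 p under 0.05, against 24.8% of all genes. edgeR called 2 without replicate 3 of day 1, against 0.518% of all genes. It called 2 without replicate 2 and 3 without replicate 3 of day 3, against 13.3% and 20.4% of all genes, shares not far from those of the 10.

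A joint test of the 4 treated days against day 0 asked whether a gene differed on any of them. edgeR called 0 of the 10 and 0% of all genes at its adjusted p, with 0.272 the lowest. Of the 10, 8 (all but Ifitm1 and Ifitm2) had an unadjusted p under 0.05, against 17.0% of all genes. DESeq2 called the same 8, against 7.59% of all genes, with Samd9l at the lowest adjusted p of 0.000117. That DESeq2 count was 4 without replicate 1 or 3 of day 0 or replicate 1 of day 7, and 5 without replicate 2 of day 0, where DESeq2 called between 1.44% and 3.14% of all genes.

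The levels of other cell types' markers moved with some of these results. All 4 leukocyte markers, Ptprc among them, had higher means on day 3 than on day 0, and their sum ran from 397 to 564 CPM on day 0, 369 to 908 CPM on day 1, 906 to 2158 CPM on day 3, 497 to 1070.3 CPM on day 5 and 281 to 692 CPM on day 7. Of 6 macrophage markers, 5 had higher means on day 3, and their sum ran from 1319 to 1346 CPM on day 0, 983 to 1910.4 CPM on day 1, 1965 to 5105 CPM on day 3, 1371 to 2226 CPM on day 5 and 841 to 1779 CPM on day 7. All 5 T cell markers, Cd3e among them, had higher means on day 3 (median log2 2.22, all 5 at an unadjusted edgeR p under 0.05, against 19.4% of all genes), and their sum ran from 12.1 to 17.6 CPM on day 0, 9.12 to 31.1 CPM on day 1, 36.0 to 133 CPM on day 3, 11.8 to 79.0 CPM on day 5 and 3.80 to 21.9 CPM on day 7. Of the 2 monocyte markers, Ly6c2 had a log2 value of 1.97 ± 0.62 SE on day 1 and 2.34 ± 0.62 on day 3, and Ccr2 of 0.16 ± 0.37 and 0.84 ± 0.37. Their sum ran from 96.9 to 143 CPM on day 0, 134 to 267 CPM on day 1, 153 to 390 CPM on day 3, 136 to 230.2 CPM on day 5 and 53.0 to 131 CPM on day 7. None of the leukocyte, macrophage, T cell or monocyte markers was at 0 in any tumor. Skeletal muscle markers summed to between 2.42 and 137 CPM in every tumor but replicate 1 of day 3, with Myh4 at 0 in 1 day 7 tumor. The 4 erythroid markers summed to between 8.08 and 20.4 CPM on day 0 and between 26.4 and 199 CPM on day 7. All 4 were higher on day 7 at an unadjusted edgeR p under 0.05, against 1.08% of all genes. The 4 neutrophil markers summed to between 2.66 and 7.48 CPM on day 0, 2.15 and 26.3 CPM on day 1 and 11.0 and 14.8 CPM on day 3. The part of these cells in the effector levels was not tested.

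**Figure D4:**
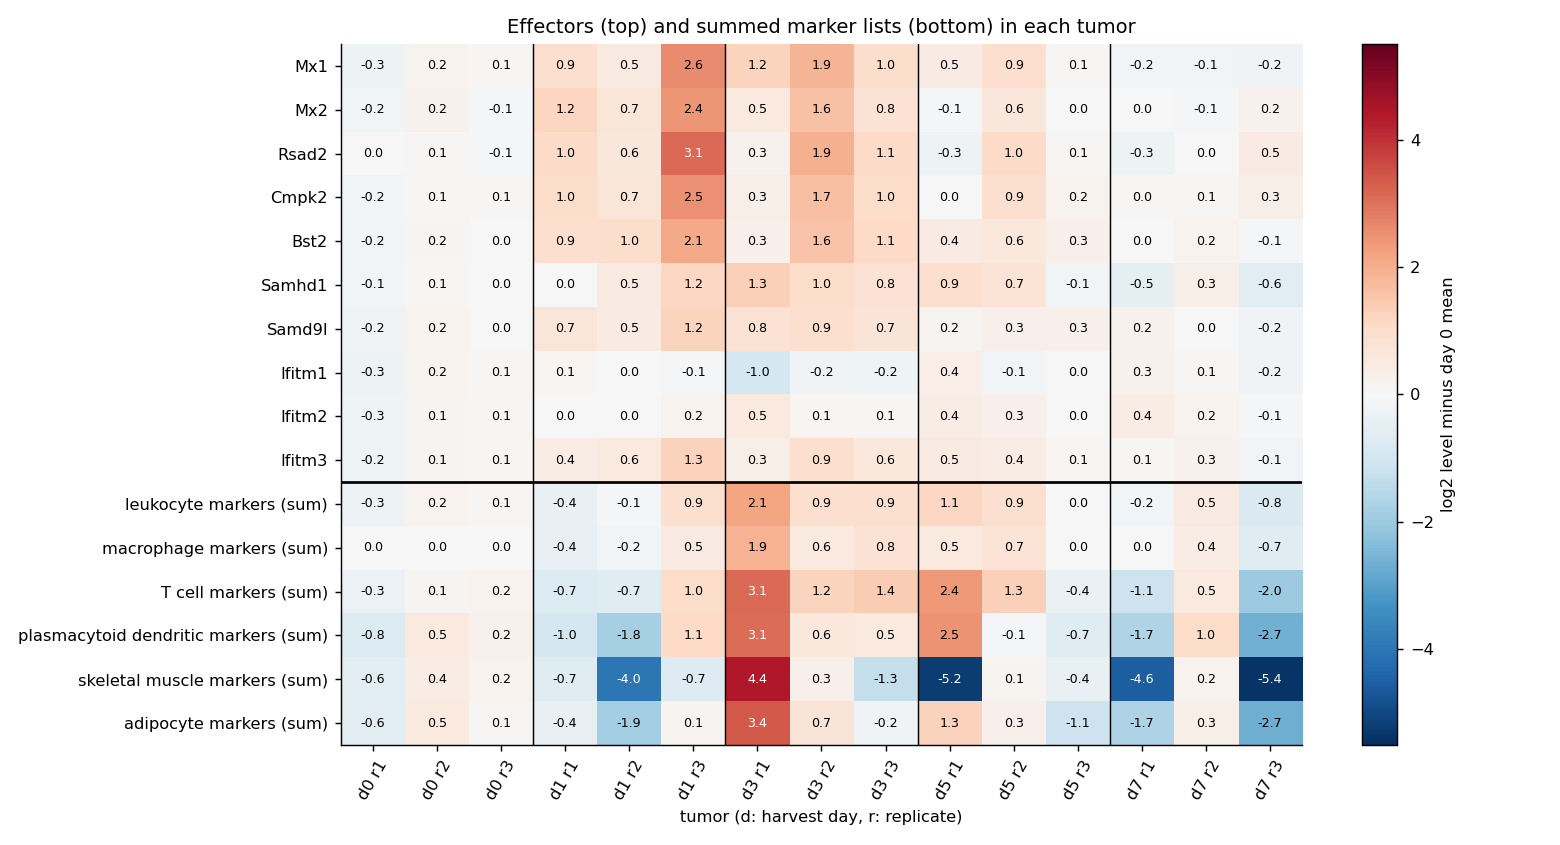
Log2 level minus the day 0 mean for the 10 effector genes (top) and for summed markers of 6 cell types (bottom), 1 column per tumor. Replicate 3 of day 1 is the strongest column for Mx1, Mx2, Rsad2, Cmpk2, Bst2, Samd9l and Ifitm3, whereas the leukocyte and muscle markers peak in replicate 1 of day 3.

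The effectors peaked in different tumors. Replicate 3 of day 1 had the highest level of 7 of the 10 genes. It was also the tumor with the most Ifnb1, which encodes interferon beta, at 21 counts against at most 6 in every other tumor. Ifnb1 was too low in the other tumors to pass the filter on low counts. Ifng, which encodes interferon gamma, did not peak in that tumor. It stood at 6.19 CPM there, against 8.31 CPM in replicate 2 of day 3 and 6.44 CPM in replicate 1 of day 5. That level was still above the other day 1 tumors, at 1.20 and 2.67 CPM. It was also above the day 0 tumors, at 1.65, 2.05 and 2.72 CPM. In replicate 3 of day 1 the 4 erythroid markers summed to 109 CPM, against 13.9 and 11.8 CPM in the other day 1 tumors. The 4 neutrophil markers summed to 26.3 CPM, against 4.41 and 2.15 CPM. Leukocyte markers summed to 908 CPM, against 369 and 452 CPM in the other day 1 tumors. In these other 2 tumors of day 1, the leukocyte sum lay within or below the day 0 range while Mx1, Mx2, Rsad2, Cmpk2, Bst2, Samd9l and Ifitm3 all lay above day 0. Replicate 1 of day 3 had the most leukocyte markers of all tumors and the highest Samhd1 and Ifitm2, yet it was the lowest of the 3 day 3 tumors for Mx2, Rsad2, Cmpk2, Bst2 and Ifitm3. Among the day 5 tumors, replicate 2 was the highest for Mx1, Mx2, Rsad2, Cmpk2 and Bst2. Whether an interferon or any of these cell types had a part in these levels was not tested.

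Other interferon effectors also had higher means on days 1 and 3. Of 36 such genes, among them Isg15, Ifit1 and Oas1a, all 36 had a higher mean on day 1 (median log2 1.23) and on day 3 (1.04). Of all genes, 50.1% and 47.9% did. The day 1 values again leaned on replicate 3, where the 36 summed to 11241 CPM. The sums were 5140 and 6414 CPM in the other day 1 tumors and at most 4216 CPM on day 0. At an unadjusted edgeR p under 0.05, 32 were higher on day 1 and 31 on day 3, where 2.29% and 19.4% of all genes were. edgeR called 0 at its adjusted p, and DESeq2 called 15 on day 1 and 24 on day 3, against 0.239% and 9.02% of all genes. The highest value on day 1 was that of Ifit3b (2.32), and on day 3 the values ran from Zc3hav1 (0.19) to Ifi27l2a (2.48). Their medians were 0.44 on day 5 and -0.04 on day 7.

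The signaling genes upstream spanned a wide range. Of 12 genes from receptor to feedback inhibitor, 11 had a higher mean on day 1 (median log2 0.44) and 12 on day 3 (0.62), and 5 and 7 were higher at an unadjusted edgeR p under 0.05, against 2.29% and 19.4% of all genes. Irf7, the transcription factor that amplifies type I interferon production, had the highest value on both days, at 2.32 ± 0.50 SE and 2.63 ± 0.51. Irf3, its constitutive relative, had the lowest, at -0.04 ± 0.14 and 0.22 ± 0.14. On day 1 the 12 summed to 1760, 2424 and 3719 CPM, the highest in replicate 3, against at most 1727 CPM on day 0. Of 5 genes of double-stranded RNA sensing (medians 0.75 and 0.50), 3 were higher at an unadjusted p under 0.05 on each day, beside the same 2.29% and 19.4% of all genes. Ifih1 had the highest value (0.90 ± 0.21 on day 1 and 0.84 ± 0.21 on day 3) and the adaptor Mavs the lowest (0.07 ± 0.11 and -0.10 ± 0.11). edgeR called 0 genes of either list at its adjusted p.

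The remaining relatives of the IFITM family were at low levels. Ifitm5, Ifitm6, Ifitm7 and Ifitm10 together summed to between 1.95 and 7.41 CPM in each tumor. Ifitm6 had the highest log2 value of these 4 on day 1 (1.59 ± 0.56 SE), where it went from 13, 36 and 19 counts in the untreated tumors to 34, 43 and 144 counts. Ifitm10 had the highest on day 3 (2.24 ± 0.48), with 13, 8 and 8 counts on day 0 and 65, 43 and 23 counts on day 3. Ifitm7 had the lowest value on both days, at -0.75 ± 0.46 and -0.21 ± 0.43. edgeR called 0 of the 4 on either day.

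For each of the 10 genes, the 2 other genes with the most similar level across the 15 tumors were ranked by Pearson's r of log2 CPM, as a description over tumors that share the same days and libraries. Mx1 was most like Ifit2 (r = 0.985, Spearman's rho = 0.968) and Oas1a (0.984, 0.971), and Mx2 most like Ifit1 (0.991, 0.954) and Isg15 (0.986, 0.943). Rsad2 followed Ifit1 (0.974, 0.900) and Isg15 (0.964, 0.846). For Cmpk2 the nearest were Isg15 (0.986, 0.925) and Usp18 (0.982, 0.921), and for Bst2 Parp12 (0.982, 0.954) and Ifi202b (0.970, 0.961). Samd9l was most like Ddx60 (0.969, 0.939) and Ifih1 (0.968, 0.932), and Ifitm3 most like Ube2l6 (0.991, 0.957) and Ifi35 (0.976, 0.968). Samhd1 was most like Il18bp (0.983, 0.979), which encodes a binding protein of interleukin 18, and Sp110 (0.982, 0.996). Their log2 fold changes on days 1 and 3 were 1.49 and 2.49 for Il18bp and 0.71 and 1.31 for Sp110. Ifitm1 was closest to Mxd3 (0.950, 0.893) and Aqp5 (0.929, 0.889), and Ifitm2 to Arf5 (0.916, 0.946) and Capns1 (0.911, 0.911). The mean of the 10 was most like Ifi202b (0.987, 0.982) and Lgals9 (0.978, 0.936).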

How the data were processed

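Polyadenylated RNA was read on an Illumina HiSeq in single-end mode, and the authors turned kallisto 0.43.0 transcript abundances into gene-level values with tximport on mm10 (GRCm38). The deposited values are estimated counts, already whole, with 1 column a tumor and no pooling, so none was rounded here. The transcript set and strandedness are not given in the sources used here. Kallisto divides reads among similar transcripts, so Ifitm2 and other paralogs are uncertain. An entry whose name is a date held at most 0.0268% of the counts of a tumor.

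Day and replicate came from the labels. Genes with CPM above 0.366 in at least 3 tumors were fitted with edgeR 4.0.16 (R 4.3.3) by quasi-likelihood F tests with TMM scaling and harvest day as the only term over all 15 tumors, and p was adjusted by Benjamini-Hochberg over 15494 genes. Tests are two-sided. They were also run on simulated counts with the same spread for all genes and no outlying tumor. That run does not show how they perform on these tumors. DESeq2 1.42.0 was an alternative, as were other scaling, no filter, robust and legacy fits, 2-day fits, a replicate block and leaving out each tumor. An exact permutation test of 3 against 3 cannot go below p = 0.1, so lack of overlap is given as a count. Levels in log2 used a prior count of 2. Named were the 10 genes in every comparison, the 2 most similar genes of each, and the extremes of 4 gene lists on days 1 and 3. The genes and lists were chosen with earlier results of these data known.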

Additional observations from a re-analysis of the deposited data

How the results depend on the processing

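Every comparison was refitted under each alternative and with each of the 15 tumors left out in turn. Under the alternatives on all tumors, the members called at an adjusted p under 0.05 went from 0 to 3 on day 1, 5 on day 3, 4 from day 3 to day 7 and 8 jointly with DESeq2, and stayed at 0 elsewhere. In these comparisons DESeq2 called 0.258%, 12.9%, 21% and 7.59% of all genes. Fitting only the 2 days compared gave 3 of the 10 at an unadjusted p under 0.05 on day 5, against 0 with all days, where 13.3% and 5.12% of all genes did. The cause of these differences was not tested. The joint test could not be fitted to only 2 days. Samd9l between day 1 and day 3 turned from -0.02 to 0.00051 with DESeq2 and to 0.00043 with its size factors.

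With a tumor left out, edgeR calls ran from 0 to 2 on day 3 and from 0 to 3 from day 3 to day 7. The shares of all genes called ran from 0% to 0.608% and from 0% to 20.4%. Counts at an unadjusted p under 0.05 ran from 5 to 8 on day 3, 0 to 1 on day 5, 0 to 2 between days 1 and 3 and 4 to 9 from day 3 to day 7. Over all genes these shares ran from 13.5% to 41.2%, 1.96% to 10.5%, 4.25% to 31.5% and 16.1% to 44.8%. DESeq2 calls, refitted this way after seeing the data, ran from 0 to 7 on day 1, 0 to 8 on day 3, 0 to 8 from day 3 to day 7 and 4 to 8 jointly. Of all genes it called from 0.00647% to 0.731%, 0.0841% to 27.4%, 0.0776% to 34.1% and 1.18% to 15.3%. The 0 from day 3 to day 7 is the fit without replicate 3 of day 7, where 5 of the 10 had no adjusted p, and without replicate 1 of day 3 1 of the 10 had none. The median log2 difference ran from 0.71 to 1.14 on day 3 and from -1.16 to -0.61 from day 3 to day 7. Single values changed sign. On day 1 Ifitm1 ran from -0.14 to 0.076 and Ifitm2 from -0.052 to 0.13. On day 5 Mx2 ran from -0.044 to 0.34, Rsad2 from -0.091 to 0.64 and Ifitm1 from -0.059 to 0.19. On day 7 Mx2 ran from -0.029 to 0.17, Rsad2 from -0.15 to 0.24, Bst2 from -0.072 to 0.11, Samd9l from -0.11 to 0.11, Ifitm1 from -0.081 to 0.15 and Ifitm3 from -0.040 to 0.16. From day 3 to day 7 Ifitm2 ran from -0.19 to 0.10. Between days 1 and 3 Mx1 ran from -0.60 to 0.68, Mx2 from -0.95 to 0.13, Rsad2 from -1.31 to 0.42, Cmpk2 from -0.93 to 0.26, Bst2 from -0.70 to 0.13, Samd9l from -0.17 to 0.23 and Ifitm3 from -0.34 to 0.15.

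With the replicate number as a replicate block, edgeR called 0 of the 10 and 0% of all genes in every comparison. At an unadjusted p under 0.05 there were 7 on day 1, 7 on day 3 and 8 from day 3 to day 7. The shares over all genes were 2.88%, 27.4% and 32.5%. Deviations from the day means of same-numbered tumors correlated from -0.62 to 0.51 over 30 pairs, with 9 over 0.1, so the numbers were not taken to pair tumors. Counts of each effector were well above 3 in every tumor, so depth set no floor on them, and the precision was limited by 3 tumors a day.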
